A study of Mus musculus with 12 samples.

Results

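Adipokines are signalling proteins that fat tissue releases into the blood. The genes described here are Lep, Adipoq, Retn, Rbp4, Nampt, Apln and Agt, 7 of the 8 adipokine genes chosen by name (the other, Cfd, which encodes adipsin, was not analysed here). They were taken from 18193 genes that have a named probe set, the group of short probes that reads a transcript on the array. Where a gene had several probe sets, the one with the highest mean over all 12 arrays was used, and the others are given beside it.

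Adipose tissue of C57Bl/6 mice was measured on single-colour Affymetrix arrays, with 4 arrays in each of 3 groups. All mice ate standard chow holding 13% of calories as fat up to 6 weeks of age. The control mice stayed on chow, and the other groups received a high-fat diet (HFD) holding 46% of calories as fat for 5 or for 14 days. The title places the series in work on insulin resistance, and chow serves as the control. All groups were group housed in a 12-h light and dark cycle, and no gene was altered. The fat depot is not named. When the control mice were sampled is not stated either, so diet and age cannot be told apart. The labels call the 4 arrays of a group replicates without saying that each came from another animal, so the p-values measure the spread between these samples. Tissue was measured whole, and fewer cells of a type and less RNA per cell cannot be told apart.

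The adipokines act on different targets. Leptin, the product of Lep, reports fat stores to the brain and lowers food intake, and adiponectin, the product of Adipoq, raises insulin sensitivity in liver and muscle. Resistin, the product of Retn, opposes insulin action in mice and is made by adipocytes in this species. Rbp4 carries retinol in blood, Nampt makes the NAD precursor nicotinamide mononucleotide, Apln encodes the peptide apelin, and Agt encodes angiotensinogen, the precursor of angiotensin. Leptin is known to rise and adiponectin to fall in long-standing obesity.

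Promoters of Lep, Rbp4 and Agt, the 3 genes with the largest spread within groups, are shown; each holds a TATA box match, and Lep and Rbp4 also a match to the motif of the C/EBP factors, which act in adipocyte differentiation. All 7 genes have an entry in the RefSeq promoter table of GRCm38.p6, and Rbp4 has 2 starts, of which the second is shown. Each line gives the 140 bases before the start, 5′ to 3′ on the strand of the gene, and capitals mark matches to TTGCNNAA, a C/EBP-type motif, or to TATAA.
Lep, chr6:29060081-29060220, plus strand: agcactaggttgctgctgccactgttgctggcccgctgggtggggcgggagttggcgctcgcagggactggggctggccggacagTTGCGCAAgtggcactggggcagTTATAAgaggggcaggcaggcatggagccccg
Rbp4, chr19:38124812-38124951, minus strand: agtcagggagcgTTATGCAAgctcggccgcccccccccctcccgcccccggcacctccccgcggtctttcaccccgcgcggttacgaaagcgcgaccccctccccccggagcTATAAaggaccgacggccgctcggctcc
Agt, chr8:124569707-124569846, minus strand: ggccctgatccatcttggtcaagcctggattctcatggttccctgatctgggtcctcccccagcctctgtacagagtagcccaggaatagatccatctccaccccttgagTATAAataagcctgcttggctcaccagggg
In Lep the C/EBP-type match starts 55 bases before the start and the TATAA match 31 bases before it; a second TATAA match, read on the other strand, overlaps the first. In Rbp4 the corresponding distances are 128 bases (read on the other strand) and 28 bases, and in Agt the TATAA match lies 30 bases before the start. Both strands of the 250 bases before each start were searched. The first Rbp4 start, not shown, holds neither TTGCNNAA nor TATAA there, and holds CCAAT at 162 bases. Among all 32851 promoters in the table, 9.56% hold TTGCNNAA, 22.78% hold TATAA and 33.85% hold CCAAT. Adipoq holds CCAAT at 34, 27 and 7 bases before its start and neither of the other motifs. The DR1 motif, of the kind bound by PPARG, is held by 0.03% of promoters and was found in none of the 7 genes in this window. A match describes letters and shows no binding.

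Lep was the adipokine with the highest mean difference after 5 days of HFD, and Agt the one with the lowest at both times, but none of the 7 genes passed the test. Lep stood 1.40-fold above chow at 5 days, and Agt at 0.796 of chow at 5 days and 0.754 of chow at 14 days. Adipoq and Retn, read close to the top of the array's range, differed from chow by less than 0.1 log2 units. Across all 13312 genes tested, limma called 0 genes at a Benjamini-Hochberg adjusted p under 0.05 in each comparison, so the background percent called was 0 for 5 days against chow, 0 for 14 days against chow and 0 for 14 against 5 days. At an unadjusted p under 0.05, 1 of 7 adipokine genes stood out at 5 days (Agt) against 10.1% of all genes (1345), 1 of 7 at 14 days (again Agt) against 7.97% (1061), and 0 of 7 between the HFD groups against 2.55% (340). These shares of the 7 genes are those of 1 gene and lie near the background.

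**Figure D1:**
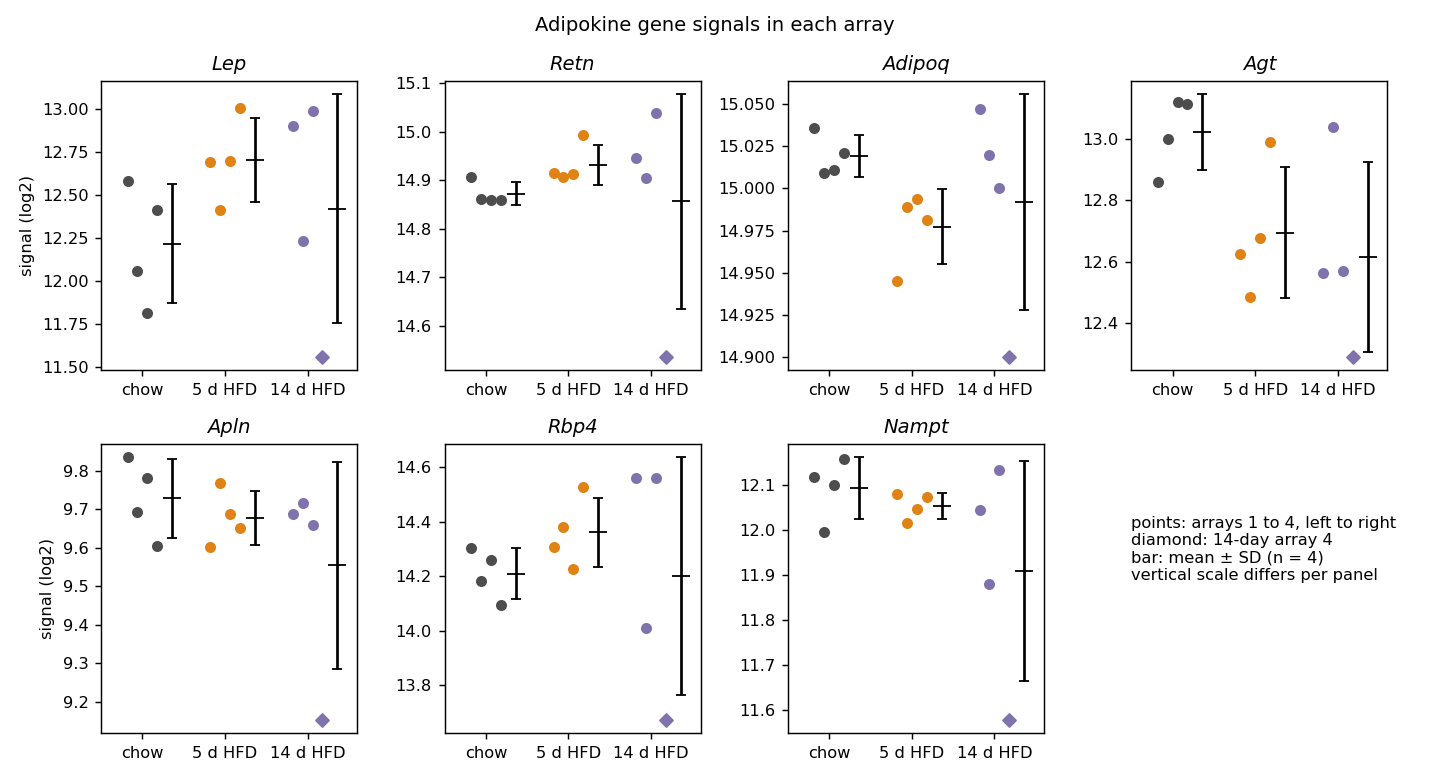
Log2 signal of the 7 adipokine genes in each of the 12 arrays, by group, with the group mean ± SD (n = 4); each panel has its own vertical scale. The diamond, 14-day array 4, is the lowest point in all 7 panels, and the Agt panel has 1 array of each HFD group at the level of chow.

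Lep signals on chow were 12.58, 12.06, 11.81 and 12.41 in arrays 1 to 4. After 5 days they were 12.69, 12.41, 12.70 and 13.01, and after 14 days 12.90, 12.23, 12.99 and 11.56. The 5-day arrays ranged from the chow level upward and 3 of the 4 lay above every chow array, while the 14-day group held 2 arrays above all of chow and the lowest array of all 12. Group means were 12.22 ± 0.35 on chow, 12.70 ± 0.24 at 5 days and 12.42 ± 0.67 at 14 days (log2, SD, n = 4). The order of means was chow, 14 days, 5 days, and no neighbours in that order differed beyond their spread. The 5-day difference was 0.49 ± 0.29 log2 units (SE), a fold of 1.40 with a 95% interval from 0.899 to 2.18 (limma, adjusted p = 0.597). The 14-day difference was 0.20 ± 0.29 (limma, adjusted p = 0.883), with an interval of the fold from 0.739 to 1.79. Between the HFD groups Lep differed by -0.28 (limma, adjusted p = 0.999). With all arrays the interval at 5 days holds both no change and a rise of 2-fold. Without 14-day array 4, which enters this comparison through the shared spread alone, it ran from 1.022 to 1.919 around the same fold (limma, unadjusted p = 0.0386, adjusted p = 0.262). Leaving out each array in turn, the 5-day difference ran from 0.35 to 0.61 (limma, adjusted p from 0.262 to 0.844). Without both HFD arrays numbered 4 it was 0.38 (limma, unadjusted p = 0.104, adjusted p = 0.33).

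Without 14-day array 4, the Lep difference at 14 days was 0.49 (95% interval -0.0007 to 0.98; limma, unadjusted p = 0.0503, adjusted p = 0.51), close to the 5-day difference. Leaving out 14-day array 3 instead brought it to 0.0134 (limma, adjusted p = 0.995), leaving out 14-day array 1 to 0.0438, and chow array 3 to 0.0688, so single arrays moved it both ways. Without 14-day array 4, its difference between 14 and 5 days came to 0.005. Lep varied more within groups than 96.8% of the 853 genes of like signal (within 0.5 log2 units), with a within-group SD of 0.46. Chow array 3 and 5-day array 2, the lowest in Lep of their groups, had skeletal muscle marker means (6 of 8 measured) of 13.05 and 12.78. The other arrays read 8.38 to 9.48, with 9.07 in 14-day array 4, the lowest of all in Lep. The part of these markers in the Lep values was not tested.

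Retn gave 14.91, 14.86, 14.86 and 14.86 on chow, 14.91, 14.91, 14.91 and 14.99 at 5 days and 14.95, 14.91, 15.04 and 14.54 at 14 days. Its 5-day arrays all lay at or above the highest chow array, and its 14-day arrays divided into 3 near or above the highest chow array and 1 far below all the others. Means were 14.87 ± 0.02, 14.93 ± 0.04 and 14.86 ± 0.22 in the same order of groups (log2, SD, n = 4). The difference from chow was 0.06 ± 0.09 at 5 days (limma, adjusted p = 0.859) and -0.02 ± 0.09 at 14 days (limma, adjusted p = 0.97). Without 14-day array 4 the 14-day difference turned to 0.09 (limma, unadjusted p = 0.0386, adjusted p = 0.497).

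Adipoq, the most even of the 7 genes, gave 15.04, 15.01, 15.01 and 15.02 on chow. At 5 days it gave 14.95, 14.99, 14.99 and 14.98, so that every 5-day array lay below every chow array. The gap between these groups was small, -0.042 ± 0.039 (limma, adjusted p = 0.764). It was the only one of the 7 genes whose 5-day and chow arrays did not overlap, against 11.3% of all genes tested. At 14 days its values were 15.05, 15.02, 15 and 14.90, which overlapped chow, and the difference was -0.03 ± 0.04 (limma, adjusted p = 0.881). At 14 days 0 of 7 adipokine genes separated from chow (background 4.63%), and 0 of 7 separated 14 from 5 days (background 0.924%).

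Both Adipoq and Retn were read near the ceiling. The highest signal of an array was 15.193 to 15.504, while a 16-bit scanner cannot pass 16 log2 units, and 206 to 240 probe sets per array were at 14 or above. Adipoq lay 0.19 to 0.60 log2 units under the highest signal of its array and Retn 0.20 to 0.97. Rbp4 followed at 0.67 to 1.83, and Agt, Lep and Nampt lay at least 2.18 below it. Among genes with a mean of 14 or above (115 genes) the median within-group SD was 0.107, against 0.13 to 0.144 in bins of lower signal. How far the ceiling shortens a difference of Adipoq or Retn was not tested, so their small differences are differences of signal.

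**Figure D2:**
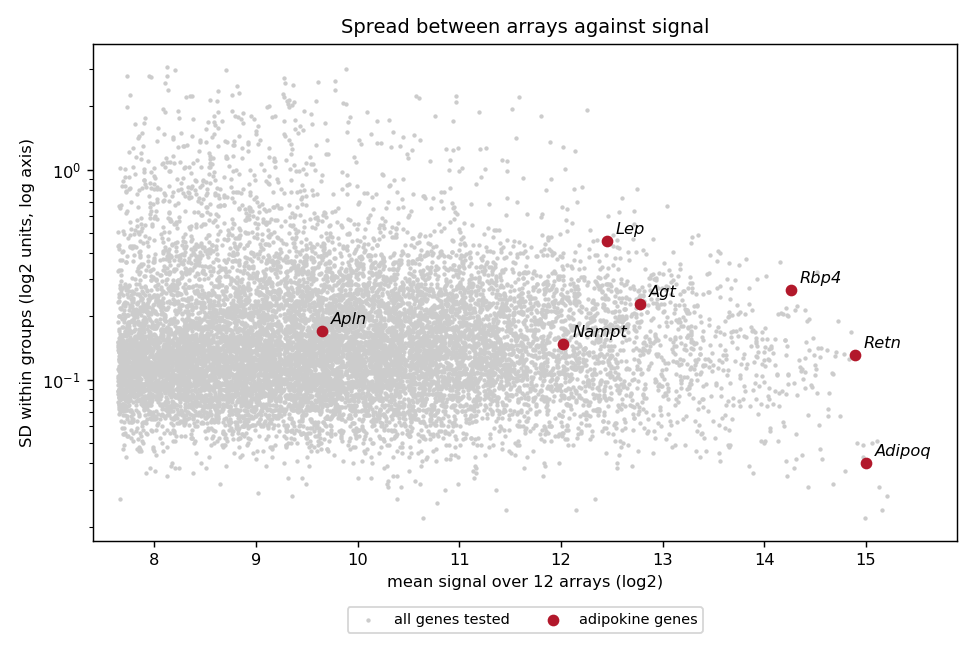
SD within groups (log2 units, log axis) against the mean signal over 12 arrays (log2) for all 13312 genes tested (grey) and the 7 adipokine genes (red). Adipoq sits at the right with an SD of 0.04, while Lep (0.46) and Rbp4 (0.27) are high in the cloud at their signal.

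Rbp4 signals were 14.30, 14.18, 14.26 and 14.09 on chow, 14.31, 14.38, 14.23 and 14.53 at 5 days and 14.56, 14.01, 14.56 and 13.67 at 14 days. The 14-day arrays stood in pairs, arrays 1 and 3 above all chow arrays and arrays 2 and 4 below them. The mean was 14.21 ± 0.09 on chow, 14.36 ± 0.13 at 5 days and 14.20 ± 0.44 at 14 days (log2, SD, n = 4). Differences from chow were 0.15 ± 0.17 at 5 days (limma, adjusted p = 0.81) and -0.01 ± 0.17 at 14 days (limma, adjusted p = 0.991), with a fold at 14 days between 0.764 and 1.29. The difference at 14 days was 0.17 without 14-day array 4. Rbp4 varied more within groups than 95.3% of the 148 genes of like signal.

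Agt signals were 12.86, 13.00, 13.12 and 13.11 on chow. They were 12.63, 12.48, 12.68 and 12.99 at 5 days, and 12.56, 13.04, 12.57 and 12.29 at 14 days. In each HFD group 3 arrays lay below every chow array, and the other one (5-day array 4 and 14-day array 2) within the range of chow. Means were 13.02 ± 0.12 on chow, 12.69 ± 0.21 at 5 days and 12.62 ± 0.31 at 14 days (log2, SD, n = 4). The 5-day difference was -0.33 ± 0.15 log2 units, a fold of 0.796 (limma, unadjusted p = 0.0496, adjusted p = 0.494). At 14 days it was -0.41 ± 0.15, a fold of 0.754 with a 95% interval from 0.60 to 0.946 (limma, unadjusted p = 0.0193, adjusted p = 0.58). Among all genes, 5.67% were lower at an unadjusted p under 0.05 at 5 days and 4.3% at 14 days. The HFD groups differed from each other by -0.08 (limma, adjusted p = 0.999). Without 14-day array 4 the 14-day difference was -0.30 (unadjusted p = 0.0553, limma), and without 14-day array 2 it was -0.55 (limma, unadjusted p = 0.0011, adjusted p = 0.086). The exceptions, 5-day array 4 and 14-day array 2, had the highest endothelium marker means (8 of 8 measured) of the 12 arrays, 11.28 and 10.83, against 10.09 to 10.54 in the other HFD arrays and 10.35 to 10.68 on chow. Mesothelium markers (8 of 8 measured) were 10.55 to 10.84 on chow, 9.81 to 10.34 at 5 days and 9.53 to 10.66 at 14 days, so the 5-day arrays lay below chow without overlap. They read 9.81 in 5-day array 4 and 10.11 in 14-day array 2, where Agt was within the chow range. In 14-day arrays 1 and 4, where Agt was below chow, they read 10.66 and 9.53. The part of these markers in the Agt difference was not tested.

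Nampt has 3 probe sets. The main one gave 12.12, 12.00, 12.10 and 12.16 on chow, 12.08, 12.02, 12.05 and 12.07 at 5 days and 12.05, 11.88, 12.13 and 11.58 at 14 days. Differences were -0.04 ± 0.10 at 5 days (limma, adjusted p = 0.925) and -0.18 ± 0.10 at 14 days (limma, adjusted p = 0.693), the latter -0.07 without 14-day array 4. The probe set 1448607_at, at 9.24 to 9.95, differed by -0.04 and -0.26, and 1455320_at, at 11.01 to 11.49, by 0.02 and -0.10. All 3 were lower at 14 days, and the direction at 5 days was not the same in all 3.

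Apln gave 9.84, 9.69, 9.78 and 9.60 on chow, 9.60, 9.77, 9.69 and 9.65 at 5 days and 9.69, 9.72, 9.66 and 9.15 at 14 days. Its first 3 14-day arrays lay inside the chow range, and the fourth below all others. The difference was -0.05 ± 0.12 at 5 days (limma, adjusted p = 0.913) and -0.17 ± 0.12 at 14 days (limma, adjusted p = 0.735). Without the fourth array the latter was -0.04.

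**Figure D3:**
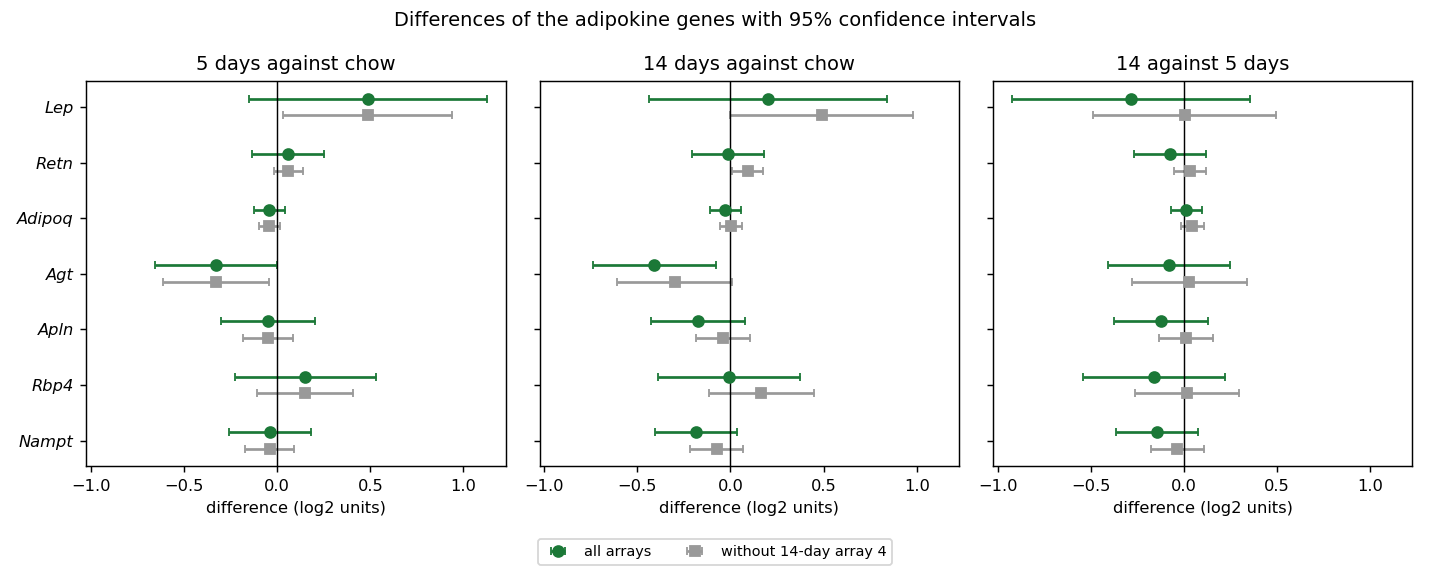
Differences in log2 units with 95% confidence intervals from limma for the 7 adipokine genes, with all 12 arrays (circles) and without 14-day array 4 (squares), on 1 horizontal scale. The Agt intervals lie below 0 at 5 and 14 days with all arrays, and the Lep difference at 14 days moves from 0.20 to 0.49 when the array is left out.

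Ordered by group mean from low to high, Agt, Nampt and Apln ran 14 days, 5 days, chow; Rbp4 and Retn ran 14 days, chow, 5 days; and Adipoq ran 5 days, 14 days, chow. Neighbouring groups in these orders overlapped in their arrays, or met at 1 value (Retn on chow and at 5 days), for all 6 genes, and no difference between them passed the limma test. Counted over the 7 genes, 3 were higher and 4 lower at 5 days, where 49.5% of all genes were above 0 and 50.4% below, and the median difference was -0.039 (all genes -0.001). At 14 days 1 was higher and 6 lower, with a median of -0.027 (all genes 0.015, with 55.2% above 0 and 44.8% below). Between 14 and 5 days 1 was higher and 6 lower, with a median of -0.123 (all genes 0.012, 56% above 0 and 44% below). These comparisons share arrays, and the balance turned with 1 of them. Without 14-day array 4, 4 of 7 genes were higher at 14 days than on chow (median 0.003), and 6 of 7 were higher at 14 than at 5 days (median 0.016).

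That array was 14-day array 4, which had the lowest signal of all 12 arrays for 7 of 7 adipokine genes, while it was the lowest for 27.8% of all genes tested. Deviations from the chow mean in it ran from -0.12 (Adipoq) to -0.73 (Agt). The adipocyte markers Plin4, Fabp4 and 7 others (9 of 12 listed were measured) had means of 14.09 in that array and 14.29 to 14.47 in the others. Its macrophage markers (10 of 10 measured) stood at 10.02, against 10.87 to 11.47 elsewhere, and its preadipocyte and fibroblast markers at 11.48. Its epididymis markers (4 of 8 measured) stood at 12.82. The same list read 10.90, 11.27 and 11.68 in 5-day arrays 1 to 3 and 7.18 to 8.50 in the other 8 arrays, and Spink8 in those 4 arrays was 14.28 to 14.96. Gpx5, a defining epididymis gene, stayed at 7.82 to 8.52. When limma weighted arrays by how closely each follows its group, this array received 0.106, the lowest weight of the 12. The part of these markers in the adipokine values was not tested.

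Lep, Retn and Rbp4 had the same 3 highest arrays, namely 5-day array 4 and 14-day arrays 1 and 3. Of all genes tested, 10.95% (1457) have these as their highest 3. Liver marker means (11 of 12 measured) stood at 13.02, 12.63 and 11.54 in these arrays. They also stood at 11.93 in chow array 3 and at 11.47 in 5-day array 2. Lep, Retn and Rbp4 read 11.81, 14.86 and 14.26 in chow array 3, and 12.41, 14.91 and 14.38 in 5-day array 2. Rbp4 and Agt are also made by liver. Alb ranged from 10.04 to 14.56, and Cyp2e1, also expressed in fat, from 14.88 to 15.04. Agt, in contrast, was within the chow range (12.99) in 5-day array 4, the array of highest liver markers, and below chow in 14-day arrays 1 and 3. The 3′ minus 5′ signal of pyruvate carboxylase controls, a sign of RNA quality, was 2.83 in 5-day array 4 and 1.59 to 2.18 in the others. Whether these values have a part in the Lep, Retn and Rbp4 signals was not tested.

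**Figure D4:**
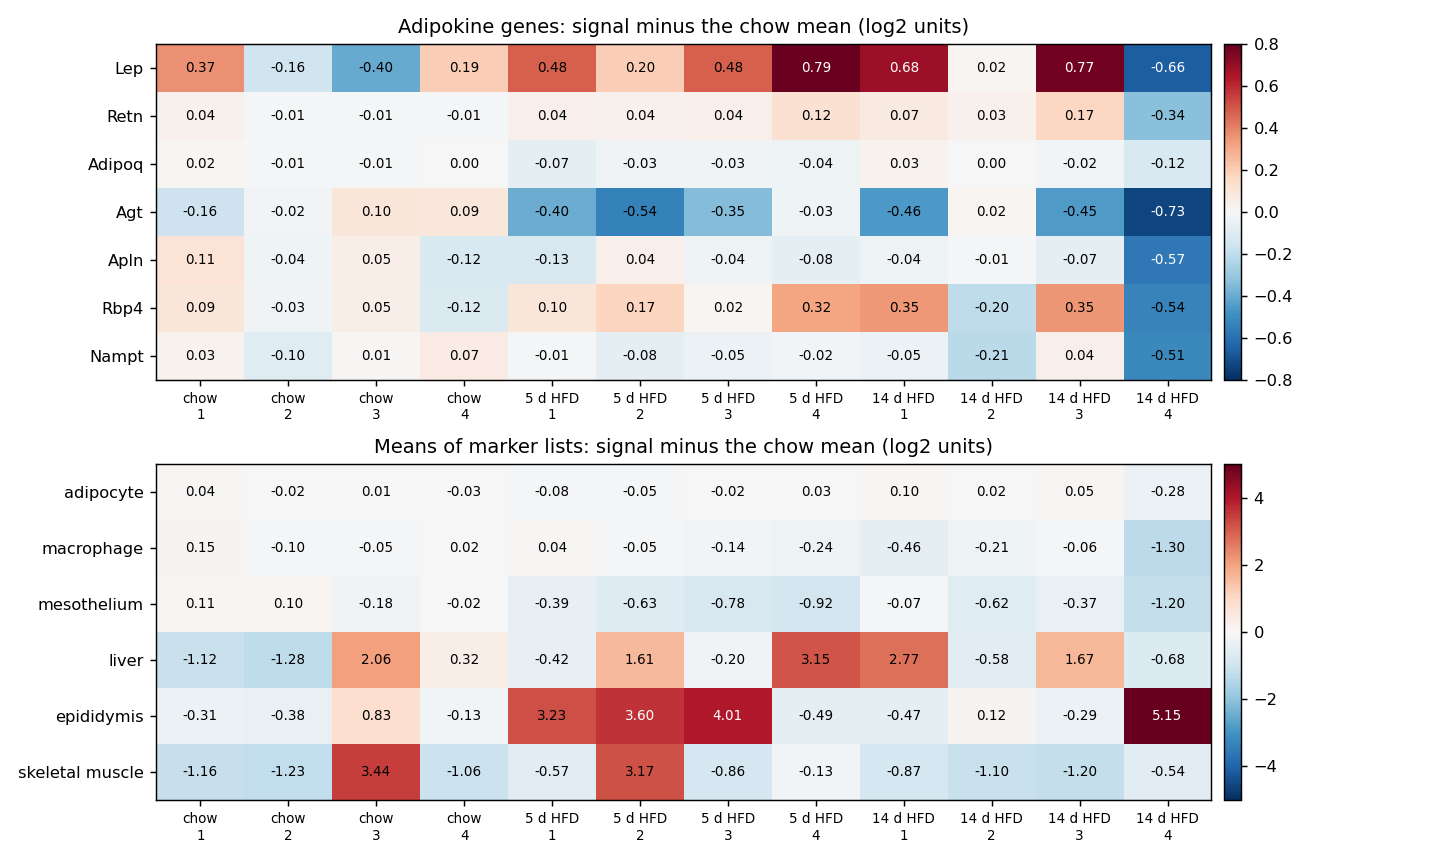
Signal minus the chow mean (log2 units) in each of 12 arrays, for the 7 adipokine genes (upper panel, colour limits at 0.8) and for the means of 6 marker lists (lower panel, wider colour range). The 14-day array 4 column is negative for all 7 genes and holds the highest epididymis markers. Liver markers are high in 5-day array 4 and 14-day arrays 1 and 3, and also in chow array 3 and 5-day array 2.

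The genes whose signals most resembled each adipokine gene over the 12 arrays were named as a description, with Pearson's r. For Lep these were Npr3, the clearance receptor of natriuretic peptides (0.98), Prelp (0.97) and Anxa6 (0.96), which also followed it without 14-day array 4 (0.97, 0.95 and 0.95). For Agt they were Svep1 (0.96), Man2a1 (0.94) and Tst (0.94), which kept 0.95, 0.96 and 0.92. Rbp4 was most like 1810058I24Rik (0.98), Dusp23 (0.97) and Ptpmt1 (0.97), and Retn most like Gdap2 (0.98), Lrrc4c (0.97) and Mlkl (0.97); without the array these were 0.90 to 0.98. Adipoq was most like Pck1 (0.95), the enzyme of glyceroneogenesis in fat, Ebf2 (0.93) and Cdk20 (0.93), at 0.90, 0.84 and 0.84 without the array. The likeness of Nampt to Cyp4f18 (0.96), Steap3 (0.94) and Ms4a6d (0.94) came down to 0.79, 0.73 and 0.66 without it, and that of Apln to Gm527 (0.94), Slc25a25 (0.93) and Slco6d1 (0.93) to 0.68, 0.78 and 0.55. Among the 21 pairs of adipokine genes r exceeded 0.6 in 12 pairs with all arrays and in 3 without 14-day array 4, all 3 of them between Lep, Retn and Rbp4 (0.83, 0.77 and 0.70). The 12 arrays share 1 scale and 3 groups, so no p is given.

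Receptors and partners of the adipokines, in 10 lists of 99 distinct measured genes, gave 0 called genes by limma in each comparison. At an unadjusted p under 0.05, 7 of 99 stood out at 5 days and 9 of 99 at 14 days, close to the background of 10.1% and 7.97%. Of these genes 36 were higher at 5 days and 34 at 14 days, with medians of -0.063 and -0.075. Among all genes tested, 49.5% were higher at 5 days and 55.2% at 14 days. The lowest adjusted p was 0.347 at 5 days and 0.466 at 14 days. Groups did not overlap in 13 of 99 genes at 5 days (background 11.3%) and 4 of 99 at 14 days (background 4.63%).

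The leptin list (11 of 11 measured) had a median of -0.02 at 5 days and -0.021 at 14 days, with 3 and 4 genes higher. Lepr, the leptin receptor, differed by -0.13 ± 0.08 at 5 days (limma, adjusted p = 0.622; -0.08 without 5-day array 4) and by 0.01 at 14 days. Stat5a had the smallest p of the leptin list at 14 days, with a difference of 0.19 (limma, adjusted p = 0.715). In the adiponectin list (10 of 12), 4 genes were higher at 5 days and 8 at 14 days. Adipor1, a receptor that works through AMPK, was 12.27 to 12.32 on chow and 12.40 to 12.59 at 5 days, so the groups were apart, with a difference of 0.18 ± 0.07 (limma, unadjusted p = 0.022, adjusted p = 0.415). At 14 days it was 0.08, and 0.05 without array 4. Adipor2 differed by -0.24 and -0.13, and the adiponectin-binding cadherin Cdh13 by 0.20 and 0.09, with adjusted p from 0.511 to 0.919 (limma). The 14-day value of Adipor2 was -0.06 without array 4. Each Cdh13 value rested on 1 array: it was 0.013 at 5 days without array 4, which read 11.25 against 10.40 to 10.60 in the other 3, and 0.001 at 14 days without array 2.

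The resistin list (4 of 6) was lower in 4 of 4 genes at 5 days and in 3 of 4 at 14 days. Cap1, a candidate resistin receptor, was 8.72 to 8.90 on chow and 8.30 to 8.74 at 5 days, a difference of -0.28 ± 0.10 (limma, adjusted p = 0.382), and 0.01 at 14 days. Ror1, another candidate receptor, differed by -0.31 at 14 days (limma, adjusted p = 0.58). The relative Retnla, named here after its values were seen, differed by -0.49 at 14 days (limma, adjusted p = 0.58).

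The complement list, in which adipsin acts (7 of 10), was lower in all 7 measured genes at 14 days, with a median of -0.291. The receptor C3ar1 was 9.61 to 9.86 on chow and 9.08 to 9.53 at 14 days, a difference of -0.41 ± 0.11 with no overlap (limma, unadjusted p = 0.00271, adjusted p = 0.466). C5ar1 was 8.49 to 8.97 and 8.02 to 8.44 in these groups, a difference of -0.38 ± 0.12. The other 2 with an unadjusted p under 0.05, named after their values were seen, were Cfp (properdin, -0.71) and Cd46 (-0.20). These receptors and properdin are expressed by myeloid cells. The macrophage markers averaged 11.33 ± 0.11 on chow and 10.82 ± 0.55 at 14 days (SD, n = 4). In the 14-day arrays these markers read 10.87, 11.12, 11.26 and 10.02, the last in array 4. Without array 4 the C3ar1 difference at 14 days was -0.34. The part of myeloid cells in the complement differences was not tested.

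The retinol list (8 of 14) had medians of 0.013 and -0.036, and its widest value belonged to Ttr, the plasma partner of Rbp4 and also a liver marker, at 1.31 and 1.10 (limma, adjusted p = 0.796 and 0.868). Aldh1a1, which makes retinoic acid, differed by 0.34 and 0.16, the latter -0.04 without 14-day array 4. Its 4 highest arrays, 5-day arrays 1 to 3 (14.02, 13.83 and 14.02) and 14-day array 4 (14.24), were also those with high epididymis markers. The part of these markers in the Aldh1a1 values was not tested. Rara had the smallest p of the retinol list at 14 days, with a difference of -0.08 (limma, adjusted p = 0.805), or -0.02 without array 4. Stra6, the Rbp4 receptor, lay under the filter at 7.39. The NAD list (13 of 16 listed symbols, where Naprt and Naprt1 name the same gene) had medians of -0.023 and -0.004. Nmnat3, which turns the Nampt product into NAD, was 8.91 to 9.04 on chow and 8.51 to 8.76 at 5 days, a difference of -0.37 ± 0.13 (limma, adjusted p = 0.382). At 14 days it was -0.21, but -0.07 without array 4, which read 8.34 against 8.82 to 9.05 in the other 3. Nmrk1 had the smallest p of the NAD list at 14 days, with a difference of 0.26 (limma, adjusted p = 0.703), or 0.09 without array 4.

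In the apelin list (3 of 6 listed symbols, where Furin and Pcsk3 name the same gene), all 3 measured genes were higher in both HFD groups. The apelin receptor Aplnr was 9.59 to 9.90 on chow and 10.37, 10.17, 9.83 and 12.07 in the 5-day arrays, a difference of 0.88 ± 0.39 (limma, adjusted p = 0.487). This rested on 5-day array 4, without which it was 0.40; that array also had the highest endothelium markers, at 11.28. Mme, the peptidase neprilysin, was 10.82 to 10.97 on chow and 11.80, 11.68, 11.74 and 11.34 at 5 days, a difference of 0.78 ± 0.22 with no overlap (limma, unadjusted p = 0.00474, adjusted p = 0.347). At 14 days its arrays read 11.39, 10.82, 11.32 and 12.16, a difference of 0.56, or 0.31 without array 4. Its 4 highest arrays were those with high epididymis markers. The HFD arrays with lower epididymis markers were also above every chow array, except 14-day array 2, which was within the chow range. The part of epididymis markers in the Mme values, and of endothelium markers in those of Aplnr, was not tested.

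The renin-angiotensin list (9 of 16) had 6 of 9 genes lower at 5 days and 9 of 9 at 14 days, with medians of -0.068 and -0.134. Cma1, which encodes a mast cell chymase, was 9.06 to 9.27 on chow, 8.43 to 8.99 at 5 days and 8.60 to 8.89 at 14 days. Neither HFD group overlapped chow, with differences of -0.35 ± 0.12 and -0.42 ± 0.12 (limma, adjusted p = 0.383 and 0.489); the former was -0.22 without 5-day array 4. The angiotensin receptor Agtr1a differed by 0.01 at 5 days, a value set by array 4 (10.08, against 9.11 to 9.28 in the other 3) that was -0.22 without it, and by -0.21 at 14 days.

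Among other secreted factors (23 of 30), 11 were higher at 5 days and 8 at 14 days. Nucb2, the precursor of nesfatin, was 9.27 to 9.43 on chow and 10.74, 10.56, 10.93 and 9.31 at 5 days, a difference of 1.01 ± 0.54 (limma, adjusted p = 0.557). At 14 days it was 0.54, and -0.09 without array 4, which read 11.81. The arrays with high Nucb2 were those with high epididymis markers. The part of these markers in the Nucb2 values was not tested. Hp (haptoglobin) differed by -0.27 at 14 days, and by -0.11 without array 4, which read 14.09 against 14.64 to 14.81 in the other 3. The adipocyte transcription factors (12 of 12) were lower in 10 of 12 genes at 5 days and 11 of 12 at 14 days, with medians of -0.166 and -0.157. Of all genes tested, 50.4% were lower at 5 days and 44.8% at 14 days. Klf4 differed by -0.37 and -0.43 and Mlxipl, the carbohydrate response factor ChREBP, by -0.32 and -0.18 (-0.12 without 14-day array 1), with adjusted p from 0.414 upward (limma). The 14-day value of Klf4 was -0.29 without 14-day array 4 and -0.60 without 14-day array 2.

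**Figure D5:**
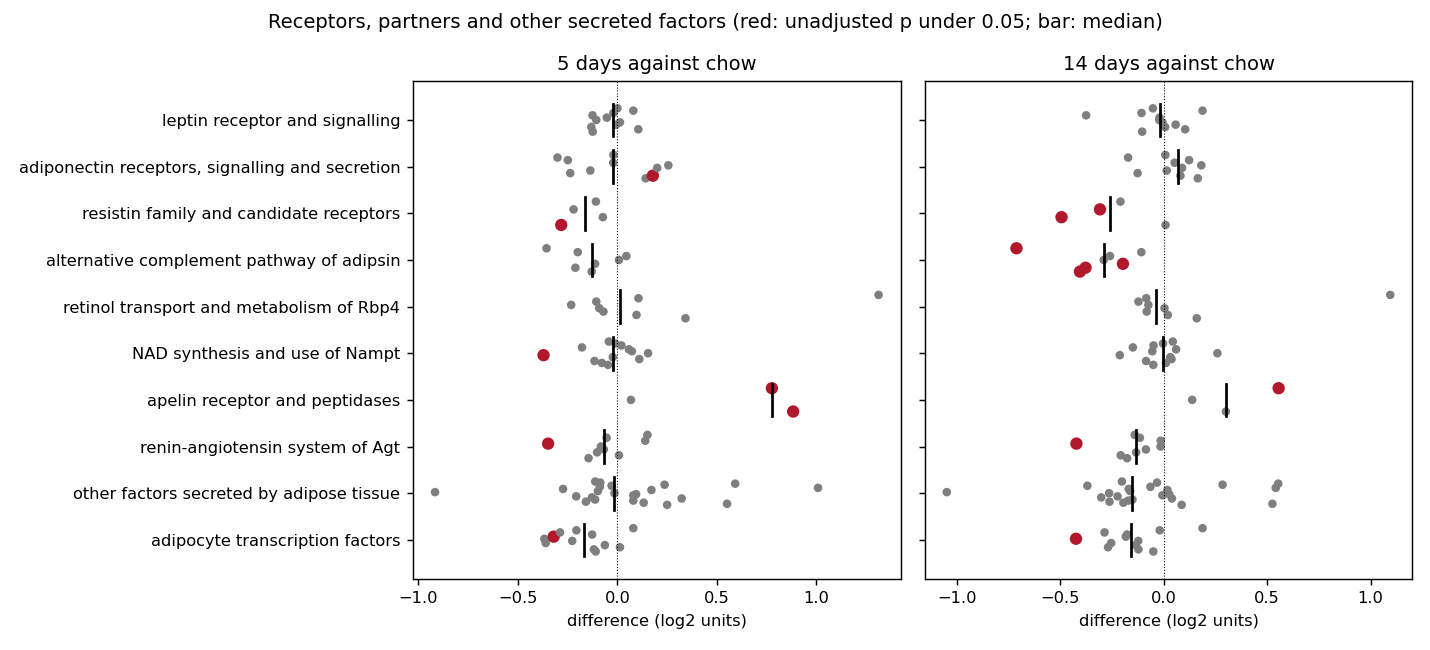
Difference from chow (log2 units) of each measured gene in the 10 lists of receptors, partners and other secreted factors, at 5 days (left) and 14 days (right); bars are medians and red points have an unadjusted p under 0.05. The apelin list lies above 0 in both panels, and the complement list below 0 at 14 days, with no gene past the adjusted threshold.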

How the data were processed

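RNA from 12 adipose samples was read on arrays. The authors deposited 1 table of log2 values for 45098 probe sets, judged as log2 from their range (lowest 4.18) and array medians (8.09 to 8.14). How probes were summarised and normalized is not given in the sources used here, and nothing was renormalized. Arrays give no counts, so their number limits the precision. Controls (61) were set aside; 34945 probe sets had 1 gene symbol, 932 several and 9160 none, per the platform annotation. A single probe set per gene (highest mean) was kept. A filter at the 40th percentile of mean signal (7.64) kept 13312 genes.

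A model of all 3 groups was run in limma 3.58.1 under R 4.3.3 (eBayes with trend; two-sided; Benjamini-Hochberg over all genes; called at an adjusted p under 0.05). The procedure was tested on simulated data with 200 changed genes.

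Members and lists were chosen with earlier results of these data known. Named were all members, the smallest p of each list at 5 and 14 days, receptors, and the 3 genes most like each member. Alternatives were other normalizations, filters, probe set rules and variance models, a replicate block, array weights, only the groups compared, and leaving out each array. Leaving out both HFD arrays numbered 4 and scaling to adipocyte markers were chosen after seeing the data.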

Additional observations from a re-analysis of the deposited data

Results flagged for a closer look

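In 27 groups of 4 arrays (the 9 probe sets of the 7 genes in 3 groups), 4 held an array far from the other 3, by a gap to its neighbour, as a share of the group's range, above Dixon's 95% critical value. Chance gives about 1 in 20 groups. Retn was highest in chow array 1, at 14.907 (gap 0.937 of the range), and in 5-day array 4, at 14.993 (0.919), both close to the ceiling of the arrays. The Nampt probe set 1448607_at was lowest in chow array 2, at 9.769 (0.917). Apln was lowest in 14-day array 4, at 9.154 (0.897).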

How the results depend on the processing

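Of 504 values of the 7 genes over 24 other settings, 469 kept their direction and their side of the threshold, 3 passed it in the same direction and 32 changed direction, 1 of which (Rbp4) passed it. With limma array weights, 2015, 2981 and 2212 of the 13312 genes tested were called at 5 days, 14 days and 14 against 5 days. Among these many calls, those of the 7 genes were Agt at 5 days (-0.4163) and Agt (-0.4527), Lep (0.6753) and Rbp4 (0.3069) at 14 days. The direction of Rbp4 was opposite to that of the main fit. The other changed directions were Adipoq 0.0138 and Retn 0.0898 at 14 days and Apln 0.0213, Lep 0.1859, Rbp4 0.1916 and Retn 0.0408 at 14 against 5 days. These weights come from the same residuals, and 14-day array 4 got the lowest. Only the groups compared gave 213 calls at 5 days. Without both HFD arrays numbered 4, 881, 1 and 723 genes were called, and directions changed for Adipoq (0.0031), Rbp4 (0.1664) and Retn (0.0913) at 14 days and for Agt (0.1287), Apln (0.002), Lep (0.1067), Rbp4 (0.0713) and Retn (0.052) at 14 against 5 days. Scaling to adipocyte markers gave 1 call at 14 days and turned Rbp4 (0.0154) and Retn (0.0089); quantile normalization turned Adipoq at 14 against 5 days (-0.0038), and median centring Rbp4 at 14 days (0.0057). Leaving out each array gave 0 to 123 calls at 5 days (123 without 14-day array 4), 0 to 20 at 14 days (20 without 14-day array 2) and 0 at 14 against 5 days. Over these fits, ranges that cross 0 at 14 days were Adipoq -0.0459 to 0.0031, Rbp4 -0.1296 to 0.1664 and Retn -0.0767 to 0.0913; at 14 against 5 days they were Adipoq -0.0039 to 0.0451, Agt -0.2202 to 0.0298, Apln -0.1768 to 0.0108, Lep -0.4723 to 0.005, Rbp4 -0.2801 to 0.0159 and Retn -0.1365 to 0.0315. The cause of these changes was not tested.

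The numbers are not taken as pairs, since the labels do not say what a replicate number marks. Same-numbered arrays did not deviate together over all genes (correlations from -0.725 to 0.408, and 1 of 12 arrays correlated best with its own number). This cannot show that pairing is absent, because large deviations of single arrays can outweigh it. With the replicate number as a block, 0 genes were called in each comparison (1129, 968 and 283 at an unadjusted p under 0.05), Lep at 5 days stood at 0.4858 (limma, adjusted p = 0.687), and no call or direction of the 7 genes changed.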
